A study of Homo sapiens with 6 samples.

Results

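The apoptosis machinery was examined in ES-2, an established line of human ovarian cancer cells, through 32 listed genes of the BCL2, caspase, death receptor and inhibitor of apoptosis (IAP) families. Of these, 23 promote and 9 inhibit apoptosis. A gene was measured where at least 1 probe set named it and no other gene in the platform annotation, and it was represented by its brightest probe set over all arrays. Those of the _x_at type, whose probes may bind more than one transcript, were used only where a gene had no other. In this way 30 of the 32 genes were measured, 22 promoting and 8 inhibiting, out of 18132 genes in all. The kinase gene RIPK1 and the IAP gene BIRC3 were not analysed here.

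Total RNA was hybridised to 6 Affymetrix PrimeView arrays, a 1-colour oligonucleotide platform. Per the labels, 3 arrays came from ES-2 cells overexpressing CADM1, a cell adhesion molecule, and 3 from ES-2 cells that the series describes as mock controls. All cells were taken in logarithmic growth, and no drug or death ligand is named in the labels. The labels do not give the vector, the number of clones or separate cultures, and the p-values thus cover only the spread from array to array, which may be technical. The source names of 2 overexpression arrays read CADM2 and CADM3, whereas their titles, descriptions and genotype fields read CADM1.

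The median log2 signal of an array was 6.18 to 6.20, and the correlation between arrays over all genes ran from 0.998 to 0.999. The brightest CADM1 probe set was lower in the arrays labelled overexpression (8.14 ± 0.040, SD, n = 3) than in those labelled control (10.26 ± 0.030, SD, n = 3), against the labels (limma, adjusted p = 5.45e-15). None of its 5 dimmer probe sets was called: under the overexpression label 3 of them were higher and 2 lower. The highest of them, 11757557_s_at, gave 0.17 and its groups did not overlap (limma, adjusted p = 0.0962). Every direction below is therefore that of the labels. The epithelial keratin genes KRT7, KRT8 and KRT18 were bright, with means of 12.50, 12.98 and 13.26 in that order, as was VIM at 13.01. The keratin gene KRT19 was dim at 5.54. The ovarian markers MSLN and FOLR1 averaged 10.02 and 10.87, and PAX8, WT1 and EPCAM were dim at 4.65, 4.24 and 2.95. Of 14 markers of other cell types, 12 lay below the median of all probe sets, 6.19, and their mean level ran from 4.67 to 4.72 in the arrays labelled overexpression and from 4.67 to 4.73 in those labelled control. Only the endothelial gene CDH5 among them was called, lower at -0.27.

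Apoptosis is executed by caspases, proteases that cells make as inactive precursors. In the mitochondrial route, BH3-only proteins activate BAK and BAX or neutralise BCL2-like proteins, the outer membrane opens, and released cytochrome c assembles with APAF1 and caspase 9 into the apoptosome. In the death receptor route, ligands such as TRAIL recruit FADD and caspase 8, and caspase 8 can cut BID to engage the mitochondria. IAP proteins restrain caspases or their upstream complexes, and FLIP, the product of CFLAR, competes with caspase 8. Many of these proteins are controlled by cleavage, binding or release from mitochondria, which an RNA array does not read.

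The comparison asked whether genes of this machinery differed between the labelled groups. None of the 22 promoting and none of the 8 inhibiting genes was called at an adjusted p under 0.05 (limma with Benjamini-Hochberg adjustment over all genes), where 2.16% of all genes were called in either direction, 0.96% as higher and 1.2% as lower. The BH3-only gene BID was the 1 member with an unadjusted p under 0.05, a level that 13.9% of all genes passed. It was also the 1 member of 30 whose groups did not overlap, as those of 18.3% of all genes did not. The lowest adjusted p of any member was 0.117, for BID. BID alone makes a share of 3.33% of the members in each case. The members were chosen with earlier results of these data known, so a share below the background is not a result about them. The same limit holds for the sizes of difference below. Among 71 further apoptosis genes, described below, the shares were 25.4% and 28.2%.

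The differences were small. The 30 members had 15 positive and 15 negative log2 fold changes (arrays labelled overexpression minus arrays labelled control), from -0.20 for TNFSF10 to 0.08 for CFLAR. Their median was 0.000003 against 0.0085 over all genes. The median for promoting genes was -0.0076 and that for inhibiting genes 0.019. Regardless of sign, the median difference was 0.034 among members and 0.050 over all genes. Brighter genes vary less, and 25 of the 30 members (83.3%) lay at or above the median level of all probe sets, compared with 53.9% of all genes. Among genes at or above that level the median absolute difference was 0.032 for the 25 members and 0.041 for all 9765 genes.

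**Figure D1:**
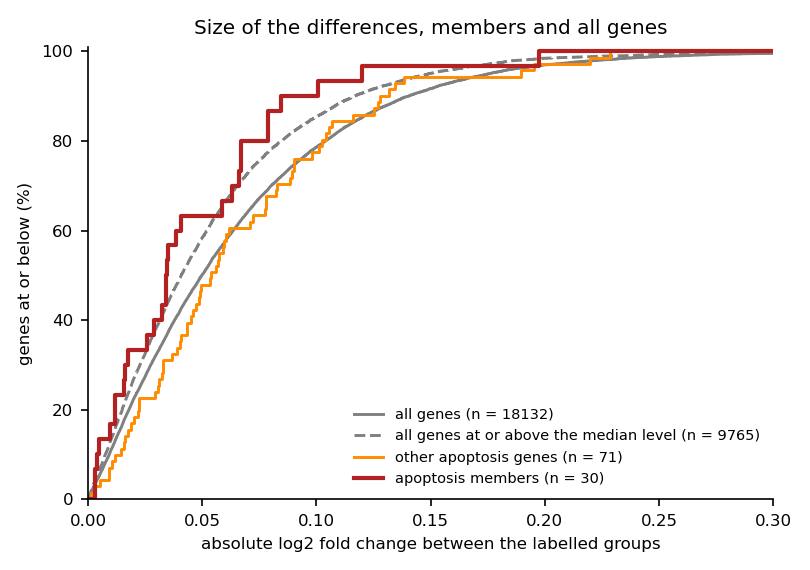
Cumulative share of genes (percent, vertical axis) with an absolute log2 fold change at or below the value on the horizontal axis, for the 30 members, 71 other apoptosis genes, all 18132 genes and the 9765 genes at or above the median level. The median lies at 0.034 for the members, 0.054 for the other apoptosis genes, 0.050 for all genes and 0.041 for the brighter genes.

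In single arrays the medians of the promoting and of the inhibiting genes stayed close to 0 in both groups. Each gene was expressed relative to its mean in the arrays labelled control, and the median over the promoting genes was then -0.011, -0.036 and 0.0079 in the 3 arrays labelled overexpression. The same median was 0.0055, 0.010 and -0.018 in the arrays labelled control, so the 2 sets of medians overlapped. Over the inhibiting genes the medians were -0.0083, 0.0064 and 0.0090 in the arrays labelled overexpression and 0.0069, 0.0074 and -0.016 in those labelled control. The largest single departure was TNFSF10 in overexpression array 1, at -0.41.

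**Figure D2:**
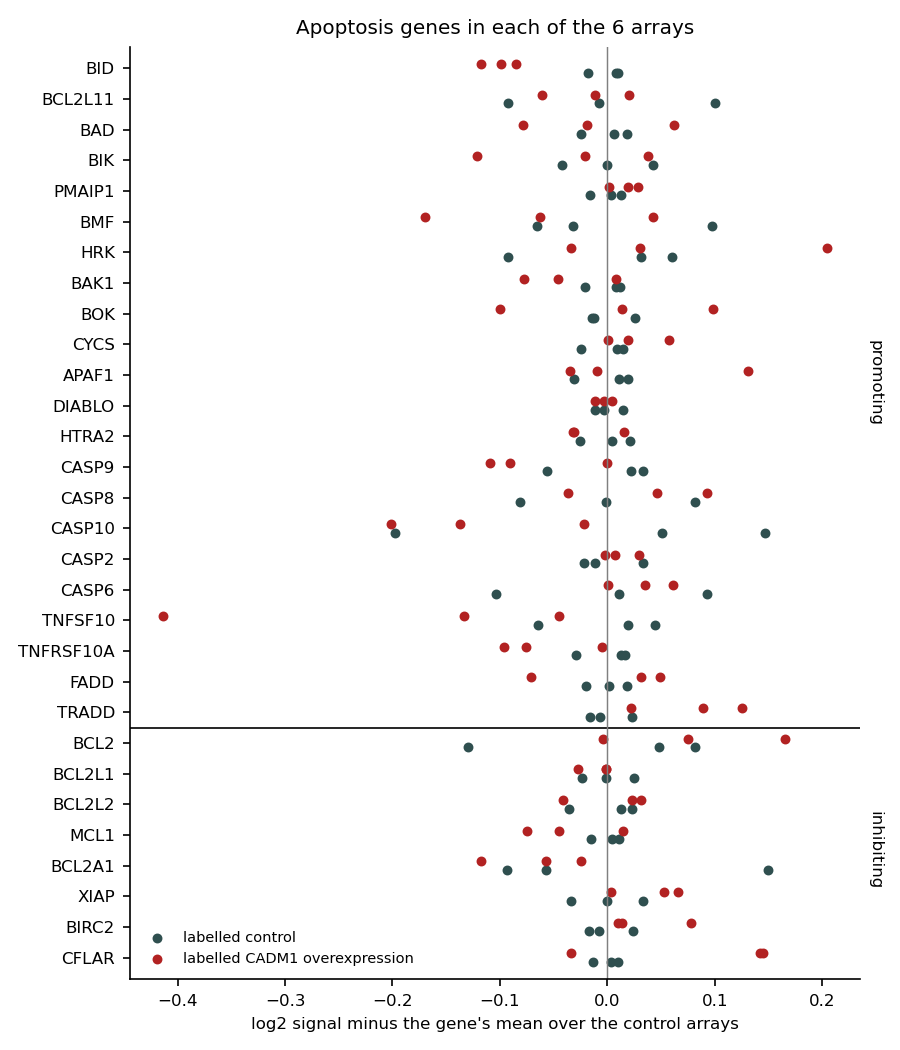
Log2 signal of each of the 30 members in each of the 6 arrays, minus the gene's mean over the 3 control arrays, with promoting genes above the line and inhibiting genes below it. The arrays of the 2 groups overlap for 29 of 30 genes, and BID is the exception.

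For the 1 probe set that represents each gene, the spread from array to array gave narrow intervals for most members. For 28 of the 30 members the 95% confidence interval of the difference (limma) lay wholly within a 1.2-fold change in either direction, as did the intervals of 78.1% of all genes. At or above the median level those of all 25 members did, and those of 95.1% of all genes. The 2 exceptions were TNFSF10, from -0.40 to 0.0015, and CASP10, from -0.33 to 0.088, both read by probe sets below the median level. Some dimmer probe sets of the other members also left the 1.2-fold bound. Among them were 11725698_x_at of XIAP, from -0.31 to -0.027, and 11763068_at of BCL2L11, from 0.068 to 0.40. Of the 8 inhibiting genes, 7 were inside that bound at a level of at least the 25th percentile of all probe sets. Among these 7 the widest interval belonged to BCL2, from -0.082 to 0.24, and the narrowest to MCL1, from -0.086 to 0.015. The interval of BCL2A1, from -0.24 to 0.11, was read near the bottom of the scale, where signal over background was not assessed. Leaving out 1 array moved the difference by over 1.5 times for 26 of the 30 members, and BID, CASP9, TNFRSF10A and TRADD were the other 4.

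**Figure D3:**
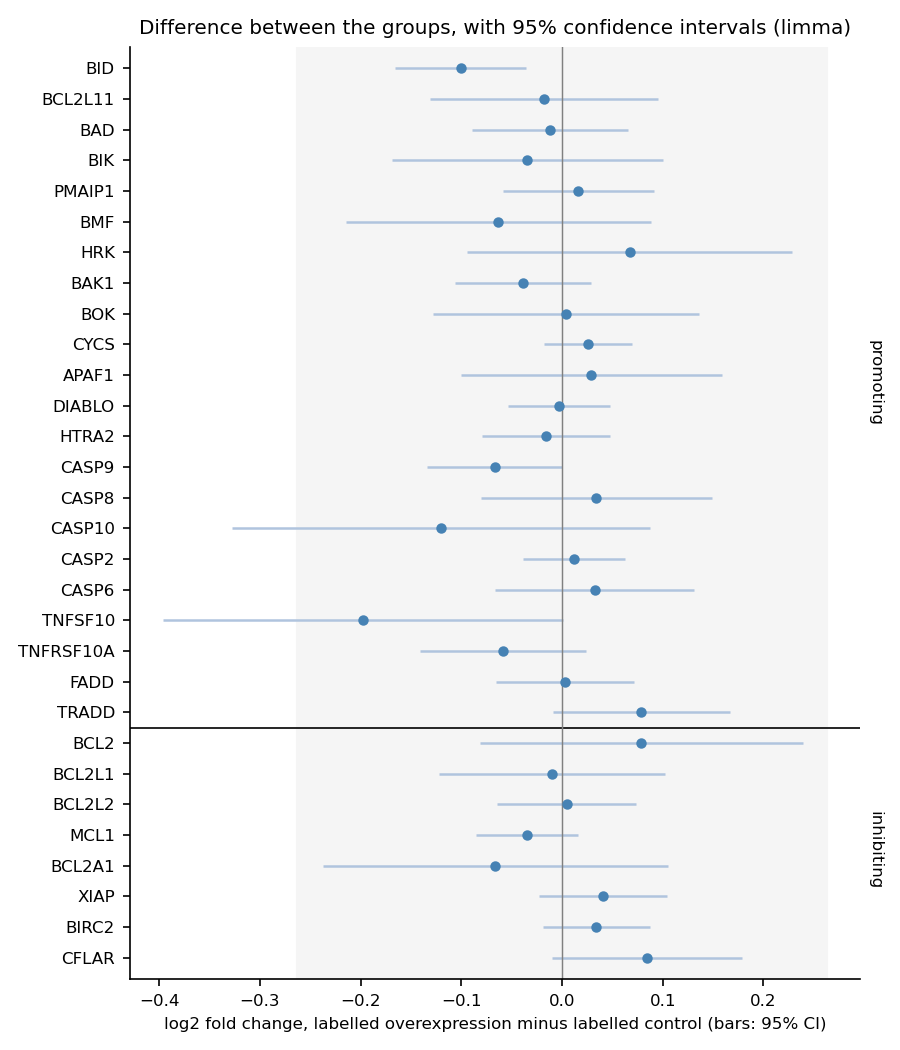
Log2 fold change (arrays labelled overexpression minus arrays labelled control) of each of the 30 members, with its 95% confidence interval from limma as a bar and a change of up to 1.2-fold shaded. The intervals of TNFSF10 and CASP10 leave the shaded range, and only that of BID does not include 0.

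Among the 7 BH3-only members, whose products sense stress and start the mitochondrial route, 0 were called and 5 had negative differences. BID, which caspase 8 cleaves to link both routes, gave 8.62, 8.61 and 8.64 in the arrays labelled overexpression and 8.73, 8.73 and 8.71 in those labelled control. The groups did not overlap, and SDs within them were 0.016 and 0.015. The log2 fold change was -0.10 ± 0.030 (SE), with a 95% interval from -0.17 to -0.036 and a 1.07-fold higher signal under the control label (limma, adjusted p = 0.117).

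All 4 BID probe sets had this sign and none had overlapping groups, although probe sets of a gene read the same RNA and are not independent. The second, 11732218_x_at, read 8.53, 8.58 and 8.66 in the arrays labelled overexpression and 8.79, 8.72 and 8.72 in those labelled control. Its difference was -0.15 (limma, adjusted p = 0.0627 over all probe sets), the lowest adjusted p among the members' probe sets. Probe set 11732217_a_at gave 8.14, 8.12 and 8.10 against 8.25, 8.27 and 8.22, a difference of -0.12 (adjusted p = 0.111). The dimmest, 11745421_a_at, gave 7.19, 7.10 and 7.13 against 7.19, 7.31 and 7.21, where the closest arrays of the 2 groups were 7.192 and 7.193. With the mean of all 4 probe sets BID was called at -0.12 (limma, adjusted p = 0.0404), whereas under the other 16 settings tried for the gene its adjusted p ran from 0.0693 to 0.318.

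**Figure D4:**
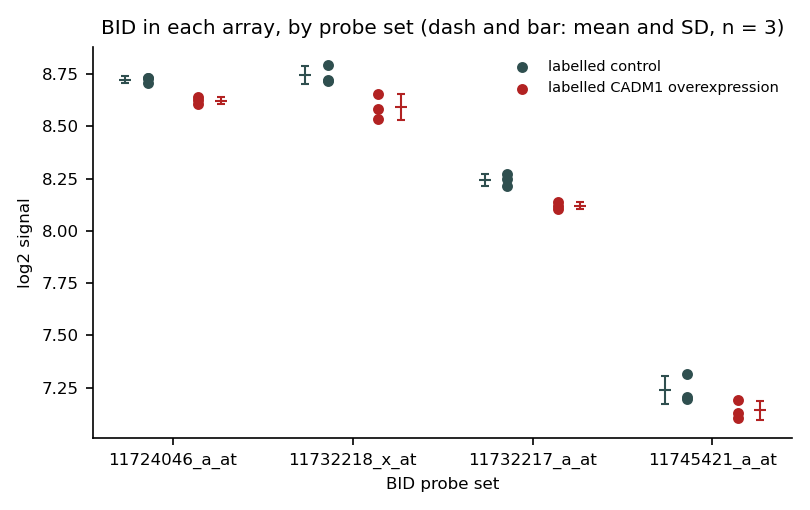
Log2 signal of BID in each of the 6 arrays by probe set, with the mean and SD of each group of 3 as a dash and bar. In all 4 probe sets the arrays labelled overexpression lie below those labelled control, by 0.097 to 0.15 in the mean.

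The other 6 BH3-only members differed by less than BID, and their groups overlapped. BCL2L11, which encodes BIM, gave 7.38, 7.33 and 7.41 against 7.49, 7.38 and 7.30 in the arrays labelled control, a difference of -0.017 well inside the spread. Its 14 probe sets pointed both ways, 8 up and 6 down, from -0.13 to 0.23. The upper end came from 11763068_at, dim at a mean of 3.52, whose groups stood apart (limma, adjusted p = 0.185). PMAIP1, which encodes NOXA, a partner of MCL1, gave 8.07, 8.06 and 8.04 against 8.04, 8.02 and 8.05, and its interval ran from -0.059 to 0.092.

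BAD, a BH3-only protein regulated by survival kinases, differed by -0.012, BIK by -0.035 and BMF by -0.063. All probe sets of BAD and BIK were negative, whereas 3 of 4 for BMF were positive. HRK, a BH3-only gene best known from neurons, was read by 1 probe set near the median level and gave 6.09, 6.26 and 6.02 against 5.96, 6.12 and 6.09. One high array, overexpression array 2, stood above the rest, and the difference of 0.067 was within the spread. BBC3, which encodes the BH3-only protein PUMA, is outside the 32 genes and was picked after its values were seen. It gave 8.44, 8.39 and 8.34 in the arrays labelled overexpression and 8.30, 8.25 and 8.21 in those labelled control. Its groups did not overlap, in the direction opposite to BID, and the difference was 0.14 (limma, adjusted p = 0.086). These values are from the 1 of the 2 BBC3 probe sets that represents it. BNIP3L, also outside the 32 and picked after its values were seen, had the sign of BID. It gave -0.13 and its groups did not overlap (limma, adjusted p = 0.0723).

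Neither of the pore-forming genes among the members was called. BAK1 gave 8.89, 8.85 and 8.94 in the arrays labelled overexpression against 8.94, 8.94 and 8.91, a difference of -0.038 with an interval from -0.11 to 0.029. Its 5 probe sets were split, 3 positive and 2 negative. BOK, a BAK-like member of the family, differed by 0.0041, with SDs of 0.10 and 0.023.

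None of the 4 genes of mitochondrial release and the apoptosome was called, and the median SE of their differences was 0.027, against 0.064 over all genes. CYCS, the gene for cytochrome c, read 12.21, 12.25 and 12.19 against 12.20, 12.16 and 12.20, and its interval was -0.018 to 0.070. APAF1, the apoptosome scaffold, differed by 0.029 ± 0.060 (SE). DIABLO, which encodes the IAP antagonist SMAC, gave 9.89, 9.88 and 9.90 against 9.91, 9.89 and 9.88. Its difference was -0.0032, with SDs of 0.008 and 0.013. HTRA2, a mitochondrial protease that also binds IAPs, differed by -0.016; of its 4 probe sets, 11742245_a_at gave -0.086 with overlapping groups (limma, adjusted p = 0.353).

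None of the 5 caspase genes among the members was called. CASP9, the initiator of the mitochondrial route, gave 10.56, 10.54 and 10.65 in the arrays labelled overexpression and 10.69, 10.67 and 10.60 in those labelled control. Overexpression array 3 lay above control array 3, so the groups overlapped, and the difference was -0.067 ± 0.031 (SE) (limma, adjusted p = 0.36). The other CASP9 probe set gave -0.051.

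CASP8, the initiator of the death receptor route, gave 7.33, 7.24 and 7.37 against 7.28, 7.36 and 7.20, a difference of 0.034. The remaining 7 of its 8 probe sets were negative, from -0.0076 to -0.065, and its sign is not settled by these data. CASP10, the close relative of CASP8, was dim and gave 4.59, 4.77 and 4.65 against 4.84, 4.93 and 4.59, so that control array 3 sat with the arrays labelled overexpression. CASP2, an initiator linked to the PIDDosome, and the effector caspase gene CASP6 differed by 0.012 and 0.032. The CASP6 value rests on 1 probe set, of the _x_at type.

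In the death receptor arm, 0 of 4 measured genes were called. TNFSF10, which encodes the ligand TRAIL and is known as an interferon-inducible gene, had the largest difference of any member. Its values were 5.11, 5.48 and 5.39 in the arrays labelled overexpression and 5.54, 5.57 and 5.46 in those labelled control. The groups overlapped narrowly, at 5.48 and 5.46, and overexpression array 1 stood lowest. The difference was -0.20 ± 0.093 (SE), a 1.15-fold higher signal under the control label (limma, adjusted p = 0.362). Without overexpression array 1 it shrank to -0.089 (limma, adjusted p = 0.791). Its other 2 probe sets, dimmer still, gave -0.13 and -0.056 with overlapping groups.

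TNFRSF10A, a TRAIL receptor, gave 7.97, 7.98 and 8.06 against 8.03, 8.07 and 8.08, a difference of -0.059. FADD, the adaptor between death receptors and caspase 8, differed by 0.0033, its groups at 9.62 ± 0.065 and 9.62 ± 0.019 (SD, n = 3 each). TRADD, the adaptor of the TNF receptor, gave 7.86, 7.75 and 7.82 against 7.72, 7.72 and 7.75. The groups overlapped by 1 array each, at 7.754 and 7.755, and the difference was 0.079 ± 0.041 (SE) (limma, adjusted p = 0.424). The other TRADD probe set gave 0.13.

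None of the 5 BCL2-like inhibitors, which hold the mitochondrial route in check, was called. MCL1, a short-lived guardian against BIM and NOXA, gave 11.44, 11.47 and 11.53 in the arrays labelled overexpression and 11.52, 11.53 and 11.50 in those labelled control. The difference was -0.035 ± 0.024 (SE), moving to -0.015 without overexpression array 1 and -0.060 without overexpression array 3, and 5 of 6 MCL1 probe sets were negative, the lowest at -0.052. BCL2L1, which encodes BCL-XL, gave 6.65, 6.67 and 6.67 against 6.70, 6.67 and 6.65. That probe set differed by -0.0097, while 11739958_x_at, brighter at a mean of 8.28 but of the _x_at type, gave 0.023.

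BCL2L2, which encodes BCL-W, differed by 0.0047, with all 6 arrays between 8.84 and 8.91. BCL2 itself was read near the median level and gave 6.08, 6.00 and 6.17 against 6.06, 6.09 and 5.88. The difference of 0.079 was within SDs of 0.085 and 0.11, and its 6 probe sets ran from -0.11 to 0.12. It was 0.014 without control array 3 and 0.12 without overexpression array 2. BCL2A1, an NF-kB-inducible inhibitor mostly found in blood cells, was at the bottom of the scale, between 2.79 and 3.06 in all 6 arrays. No detection calls were used here, so whether that signal exceeds background was not assessed.

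XIAP, BIRC2 and CFLAR had positive differences, and none was called. Of the IAP genes outside the 32, picked after their values were seen, BIRC5, BIRC6 and BIRC7 gave -0.033, -0.090 and -0.029. NAIP gave 0.13, and these genes were also uncalled. XIAP, the direct caspase inhibitor, gave 9.30, 9.31 and 9.25 in the arrays labelled overexpression and 9.24, 9.21 and 9.28 in those labelled control. The difference was 0.041 ± 0.030 (SE), yet 2 of its 5 probe sets were negative. One of these, 11725698_x_at, had groups that did not overlap and gave -0.17 from a dim mean of 5.71 (limma, adjusted p = 0.281 over all probe sets). BIRC2, which encodes the ubiquitin ligase cIAP1, gave 10.65, 10.65 and 10.72 against 10.66, 10.63 and 10.62. All 5 BIRC2 probe sets were positive, from 0.0075 to 0.069.

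CFLAR gave 8.63, 8.63 and 8.45 in the arrays labelled overexpression and 8.49, 8.49 and 8.47 in those labelled control. The first pair of arrays labelled overexpression lay above every control array and the third lay below them, which set the SDs at 0.10 and 0.012. The difference was 0.085 ± 0.044 (SE), with an interval from -0.0098 to 0.18 (limma, adjusted p = 0.424). Without overexpression array 3 CFLAR was called at 0.14 (limma, adjusted p = 0.0453), whereas without overexpression array 1 or 2 it gave 0.056 and 0.054. Of the 9 CFLAR probe sets 8 were positive, among them 11753152_x_at, brighter at a mean of 8.79 but of the _x_at type, at 0.036.

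Across all 117 probe sets of the 30 members, none was called over all probe sets, where 1.5% of those naming 1 gene were. An unadjusted p under 0.05 was reached by 7, of which 3 belonged to BID, against 12.9% of those naming 1 gene. Groups did not overlap for 14, against 17.5%, and 4 each of these belonged to BID and BCL2L11. Of the 26 members with more than 1 probe set, 7 had a single sign over all of them, namely BID, BAD, BIK, CASP9, TNFSF10, TRADD and BIRC2.

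**Figure D5:**
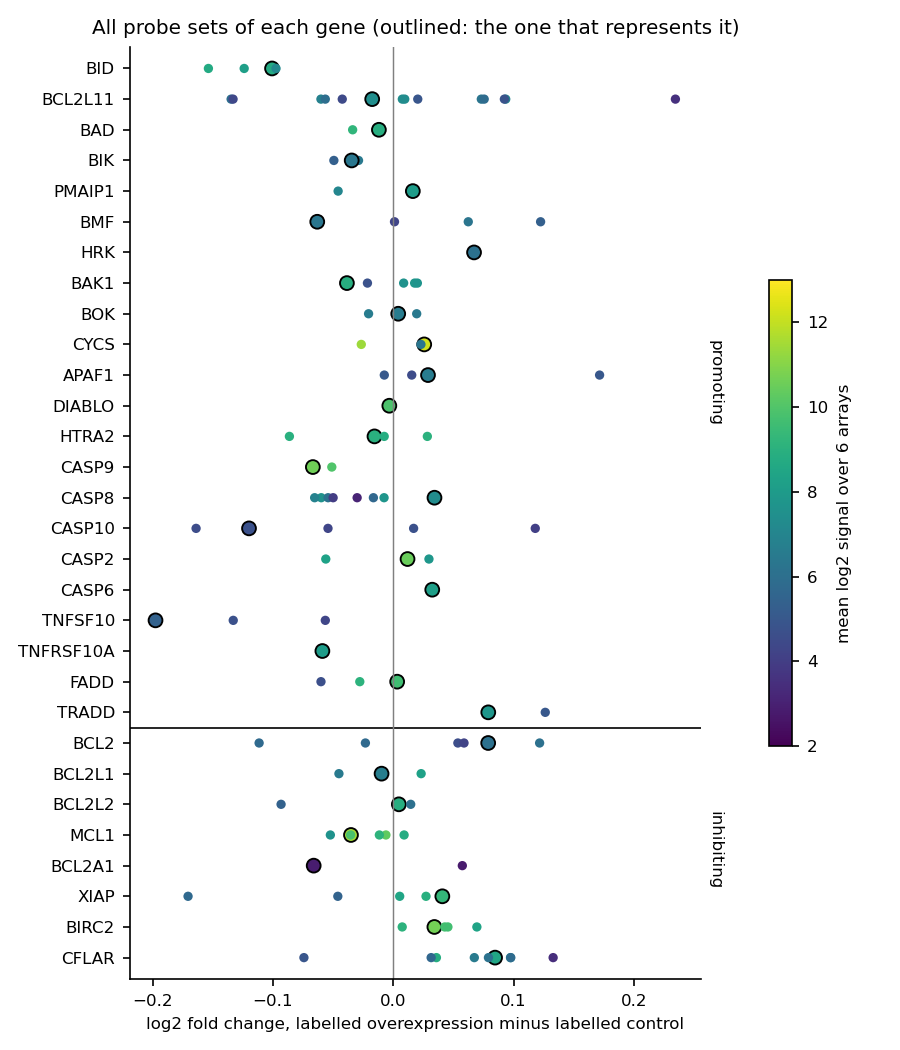
Log2 fold change (arrays labelled overexpression minus arrays labelled control) of each of the 117 probe sets of the 30 members, coloured by mean log2 signal over the 6 arrays, with the probe set that represents the gene outlined. The 4 BID probe sets lie between -0.15 and -0.097, whereas the 14 of BCL2L11 spread from -0.13 to 0.23.

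The rest of the apoptosis pathway was read through a list of 75 further genes, of which 71 were measured. Of these 1 rose and 2 fell in the arrays labelled overexpression, and 68 were not called. That is 4.23% called, against 2.16% of all genes and 3.86% of those at or above the median level. DEDD, a nuclear protein with a death effector domain, fell by 0.19, from 7.94 ± 0.034 to 7.75 ± 0.040 (SD, n = 3; limma, adjusted p = 0.0244). All 5 DEDD probe sets were negative, and 1 of them was called over all probe sets. PDCD4, a translation inhibitor and tumour suppressor, rose by 0.13, from 9.98 ± 0.058 to 10.12 ± 0.026 (SD, n = 3; limma, adjusted p = 0.0353). All 4 PDCD4 probe sets were positive, and 1 of them was called over all probe sets.

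CASP1, the inflammatory caspase that matures interleukin-1 beta, fell by 0.13, from 8.74 ± 0.038 to 8.61 ± 0.022 (SD, n = 3; limma, adjusted p = 0.0473). Of its 9 probe sets 7 were negative and the 2 positive ones were dim, with means of 3.35 and 2.95. Over all probe sets 0 of the 9 were called. With the mean of all its probe sets CASP1 gave -0.041 (limma, adjusted p = 0.659), and with its brightest one, of the _x_at type, -0.072 (adjusted p = 0.349). The co-chaperone gene BAG1, a BCL2 partner, gave 0.11 and was not called (limma, adjusted p = 0.057). The 3 calls were lost without a mean-variance trend, with replicate number as a block, and without overexpression array 1, overexpression array 2 or control array 1. Under each of these settings 0 of the 71 were called. CASP1 kept its call in 3 of the 17 settings tried for it, DEDD in 10 and PDCD4 in 11. DEDD alone was called without control array 2, and PDCD4 alone without control array 3.

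Over these 71 genes the median log2 fold change was -0.0012 and the median absolute difference 0.054. An unadjusted p under 0.05 was reached by 18 (25.4%) and the groups did not overlap for 20 (28.2%). Brighter genes pass both marks more often: of the 9765 genes at or above the median level, 20.7% had an unadjusted p under 0.05 and 24.9% had groups that did not overlap. At that level lay 54 of the 71 further genes and 25 of the 30 members, of which BID alone, or 4%, passed either mark. Whether the members differ from the further apoptosis genes was not tested, and both lists were chosen with earlier results of these data known.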

How the data were processed

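The data were 1 deposited table of log2 values for 49395 probe sets by 6 arrays. The submitters' processing notes name MAS5, with no version or setting. The log2 scale was inferred from the deposited values, which ran from 2.15 to 14.33. Whether MAS5 gave the deposited summary values was not tested. The log base, scaling between arrays and genome build are not stated in what was used here. The meaning of low values is therefore unsettled, and no coordinates are printed. Detection calls were not used here. Precision is limited by the 6 arrays.

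Of the probe sets, 44988 named 1 gene in the platform annotation and 102 were array controls. Gene numbers of 44961 matched the RefSeq gene table, which gave current symbols, and the others kept the annotation's symbol. This left 18132 genes.

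The fit used limma 3.58.1 under R 4.3.3, with group as its only term and a trend of variance on mean in eBayes. Its two-sided p-values were adjusted by Benjamini-Hochberg across all genes, and calls were made under 0.05. Confidence intervals are limma's 95% intervals. The fit was also run on simulated data with independent normal noise and a spread that followed the mean level. That setting suits a fit with a trend, so it could not judge the trend on the real arrays. No filter was applied. The alternatives were 2 normalizations, a linear offset of 32, 2 filters on dim genes, other uses of probe sets, other variance models, array weights, a replicate block and leaving out each array.

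All measured members are named. Of the 71 further genes, those named by rule are the 3 called and the next by p. BBC3, BNIP3L, BAX, BIRC5, BIRC6, BIRC7 and NAIP were picked after their values were seen. The members and lists were chosen with earlier results of these data known. Plots were made in Python 3.11.15 with matplotlib 3.10.9.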

Additional observations from a re-analysis of the deposited data

How the results depend on the processing

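The count of called members, 0, changed to 1 with the mean of all probe sets (BID, a promoting gene) and ran from 0 to 1 when an array was left out (CFLAR, an inhibiting gene, without overexpression array 3). It was 0 under the other settings tried, with 1 to 5 members at an unadjusted p under 0.05. The count over all genes, 392, was 11 without a mean-variance trend, 172 with the replicate block, and 116 to 375 when an array was left out. Among the 71 further apoptosis genes, 3 calls became 6 among brighter genes (median level and up), 5 with each probe set alone, 0 without a trend and 0 with the replicate block, and ran from 0 to 3 when an array was left out. The correlations of deviations between same-numbered arrays were 0.13, -0.071 and -0.073. Those between differently numbered arrays ran from -0.12 to 0.18. Whether the numbers pair the arrays was not tested. CADM1 stayed lower and called under each setting that gives 1 value a gene, at -0.32 with the mean of all probe sets; of its probe sets taken alone, only the brightest was called.

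Of the 30 members, 12 kept their sign under each of the settings that give 1 value a gene and 18 did not; none of the 36 changed signs was called, and the cause was not tested. With the mean of all probe sets BCL2L11 gave 0.012, BCL2L2 -0.025, BMF 0.031, CASP2 -0.0048, CASP8 -0.031, FADD -0.028, PMAIP1 -0.015 and XIAP -0.029. Quantile normalization gave 0.00085 for BCL2L1 and 0.0028 for DIABLO, and array weights gave -0.0021 for FADD. Admitting _x_at probe sets, a setting chosen after seeing the data, gave 0.023 for BCL2L1, -0.0076 for CASP8 and 0.028 for HTRA2. Leaving out an array gave ranges of -0.022 to 0.061 for APAF1, -0.049 to 0.022 for BAD, -0.11 to 0.0088 for BCL2A1, -0.022 to 0.0027 for BCL2L1, -0.064 to 0.033 for BCL2L11, -0.013 to 0.027 for BCL2L2, -0.071 to 0.0087 for BIK, -0.043 to 0.056 for BOK, -0.019 to 0.079 for CASP6, -0.0063 to 0.075 for CASP8, -0.0089 to 0.0041 for DIABLO, -0.020 to 0.040 for FADD and -0.0015 to 0.12 for HRK.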
